A study of Homo sapiens with 16 samples.

Results

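Cells of the human colon cancer line SW620 that carried an empty vector were compared with parental SW620 cells, which had not been transduced. Both groups were untreated, neither carried the ERB construct, and each had 2 libraries, numbered I and II in the labels, so that the comparison uses 4 of the 16 libraries of the study. SW620 is an established line grown from a lymph node metastasis of a colon carcinoma. The vector is described no further in the sources used here than as empty, and neither the promoter it holds, a selection step nor the number of clones is stated there. The other groups of the study, also with 2 libraries each, were SW620 transduced with the gene of estrogen receptor beta (ERB, gene ESR2), the same ERB cells after 24 h in the solvent DMSO or in 10 nM estradiol (E2), and the second line SW480 with empty vector, with ERB or parental. Messenger RNA was sequenced from cells in DMEM with serum. Whether libraries I and II stem from different cultures is not in the labels, and the p-values therefore cover the spread between libraries, which may be technical.

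The 2 empty vector libraries held 17409936 and 17227271 reads counted to genes, and the 2 parental libraries 14390800 and 14002269. ESR2 had 1 and 1 reads with empty vector against 0 and 0 in parental cells, both under a floor of 3 reads, so no fold is given. ESR1, the gene of estrogen receptor alpha, had 0 reads in all 4. Of 12 colon epithelial markers, 11 had reads in the 4 libraries, and CDX1 had none. Their summed level in CPM, reads scaled to the library total, was 13270 and 10250 CPM with empty vector, against 7430 and 11890 CPM in parental cells, ranges that overlap. Of 18 leukocyte markers 7 had no reads, among them PTPRC and CD3E, and the summed level of the list, mostly LCP1, was 566 and 654 CPM with empty vector, against 431 and 394 CPM in parental cells. Fibroblast markers summed to 75.7 and 61.4 CPM with empty vector, against 56.3 and 80.2 CPM in parental cells, and endothelial markers to 1.32 and 0.978 CPM with empty vector, against 1.59 and 1.59 CPM in parental cells. Replicates of a group differed beyond counting noise, with a chi-square per degree of freedom of 26.8 between the empty vector libraries and 46.5 between the parental ones. The libraries also differed in how strongly reads favoured GC-rich transcripts: at 39.1% GC the trend stood at -0.35 and 0.13 (log2) in empty vector libraries I and II and at 0.17 and -0.63 in parental libraries I and II. Levels from here on are adjusted CPM, which are scaled with TMM factors and have each library's trend with transcript GC content and length removed.

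Many of the genes described here serve the making and uptake of cholesterol. Cells hold their sterol level by a feedback loop: the membrane-bound transcription factors SREBP1 and SREBP2, encoded by SREBF1 and SREBF2, are kept in the endoplasmic reticulum by SCAP and the INSIG proteins while sterols are plentiful. When sterols run low the factors are carried to the Golgi, cut, and move to the nucleus, where they bind sterol elements and raise the genes of cholesterol synthesis, of fatty acid synthesis and of sterol uptake. Other genes below mark the gut epithelium, whose cells are joined by E-cadherin, and the neuroendocrine lineage, whose cells store peptides in secretory granules.

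Between empty vector and parental SW620 cells, 164 of 16533 tested genes were higher with empty vector (0.992%) and 87 were lower (0.526%), by edgeR's quasi-likelihood test at a Benjamini-Hochberg adjusted p under 0.05, with the 10 SW620 libraries sharing 1 estimate of the spread. The changes were mostly small: the median absolute log2 fold change of the 251 genes was 0.73, and 62 higher and 10 lower genes reached a factor of 2 (log2 of 1). The 2 and 2 adjusted levels did not overlap in any of the 251, and did not overlap in 38.7% of all genes tested. A call itself favours genes without overlap, so this is no separate support. The number of calls depended on the fit. Without the GC and length offsets 11 genes were higher and 3 lower (0.0847% in both directions), and in a fit of all 16 libraries with offsets 22 were higher and 2 lower (0.137%). A fit of all 16 libraries without offsets called 0 (0%), and 276 genes had an unadjusted p under 0.05 in it. Both fits of 16 libraries take the SW480 libraries into the estimate of the spread. Replicates of these differed more, with a chi-square per degree of freedom of 280 with empty vector, 171 in parental cells and 70 with ERB. Calls also fell in fits without SW480 libraries. The 6 untreated SW620 libraries gave 29 higher and 8 lower genes, and the 4 libraries of the comparison alone gave 1 and 1. DESeq2 on the 10 libraries called 262 higher and 151 lower. Leaving out empty vector library I gave 56 higher and 11 lower, leaving out empty vector library II 52 and 8, and leaving out parental library I 648 and 691. The 251 genes kept the sign of their change in each edgeR and DESeq2 alternative that tested them. Of 56 called genes named by the rules, 19 kept their call in all 4 fits that leave out a library; 33 lost it without empty vector library I, 35 without empty vector library II, 6 without parental library I and 11 without parental library II. Of the 56, 11 kept their call without the offsets and 10 in the 16 libraries with offsets. For 4 of them, SREBF2, INSIG1, CDH1 and DEFA5, the call held in both of these fits and in the 4 that leave out a library.

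The sterol genes formed the group with most calls. Of 21 cholesterol synthesis enzymes, 9 were higher with empty vector (42.9%) and 0 lower, against 0.992% higher and 0.526% lower of all genes tested. The median log2 fold change of the 21 was 0.54, against 0.02 over all genes tested. Of 19 regulators of SREBP and of sterol uptake 5 were higher (26.3%) and 0 lower (median 0.22). Of 17 tested genes of fatty acid synthesis 4 were higher (23.5%) and 0 lower (median 0.18). The lists were written with earlier results of these data known, which already showed sterol genes to be higher, so these counts are descriptions.

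Among the regulators, SREBF2 (ENSG00000198911), the SREBP2 gene, stood at 266 and 264 adjusted CPM with empty vector, against 115 and 116 in parental cells. The replicates lay close together and the groups far apart, with a log2 fold change of 1.20 (SE 0.073, adjusted p = 4.08e-05). SREBF1, the SREBP1 gene, stood at 187 and 186 with empty vector, against 102 and 109.9 in parental cells (log2 0.82, adjusted p = 0.00156). INSIG1 (ENSG00000186480), which holds the SCAP complex in the endoplasmic reticulum and is itself a target of SREBP, was at 26.8 and 33.0 with empty vector, against 8.85 and 9.29 in parental cells (log2 1.72, SE 0.16, adjusted p = 0.000602). Its paralog INSIG2 and the escort gene SCAP did not pass the test, at log2 -0.09 and -0.06, and neither did the proteases MBTPS1 and MBTPS2 that cut the factors, at -0.06 and 0.16.

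The transport genes ABCG1 and NPC1L1 did not pass the test. ABCG1, a sterol exporter gene and a target of the liver X receptors, had 4.67 and 3.84 adjusted CPM with empty vector, against 6.14 and 5.81 in parental cells, without passing the test (adjusted p = 0.261). NPC1L1, which takes up dietary sterol in the gut, had 3.12 and 4.30 with empty vector, against 1.38 and 1.85 in parental cells (adjusted p = 0.0804).

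The enzymes called higher lay along the whole pathway. Among them were, in its early steps, ACAT2, HMGCS1 and MVK, in the step to squalene and beyond FDFT1 and SQLE, and in the late steps TM7SF2, HSD17B7 and DHCR7. DHCR7, which makes cholesterol from its immediate precursor, stood at 306 and 311 adjusted CPM with empty vector, against 219.5 and 204 in parental cells (log2 0.54, SE 0.073, adjusted p = 0.00632). FDFT1, squalene synthase, stood at 445 and 374 with empty vector, against 216 and 272 in parental cells (log2 0.75, SE 0.11, adjusted p = 0.0101). HMGCS1, which makes an early precursor, had the largest difference of the list, with 45.4 and 54.6 with empty vector, against 30.1 and 19.6 in parental cells (log2 0.99, adjusted p = 0.0247). PMVK was the 1 enzyme of the 21 with a negative difference (log2 -0.20, adjusted p = 0.384). The count of 9 enzymes fell to 1 without empty vector library I and to 2 without empty vector library II, while the count of regulators was 5 in each of the 4 fits that leave out a library. Without the offsets 0 enzymes and 3 regulators were called, and in the 16 libraries with offsets 0 enzymes and 4 regulators; the median of the enzymes was 0.49 without the offsets.

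In fatty acid synthesis the 4 genes called higher were SCD, FADS1, FADS2 and ACSL3. SCD, the stearoyl-CoA desaturase, stood at 469 and 473 adjusted CPM with empty vector, against 246 and 249.5 in parental cells (log2 0.93, SE 0.068, adjusted p = 9.06e-05). Of the other fatty acid desaturase genes, FADS2 was called, at 35.2 and 34.5 with empty vector, against 20.5 and 22.5 in parental cells, as was FADS1, at 180.4 and 196 with empty vector, against 137 and 123 in parental cells. FADS3 was not called (log2 -0.16). ACSL3, which activates fatty acids, was higher by a log2 of 0.63. The genes of the synthesis proper did not pass the test: FASN, the fatty acid synthase, had 666 and 671 with empty vector, against 579 and 618 in parental cells (log2 0.16), ACLY had a log2 difference of 0.06 and ACACA of 0.26. SCD kept its call in each fit that leaves out 1 library and lost it without the offsets (adjusted p = 0.0664), while FADS1 and FADS2 lost theirs without either empty vector library, at adjusted p-values of up to 0.179 and 0.117.

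**Figure D1:**
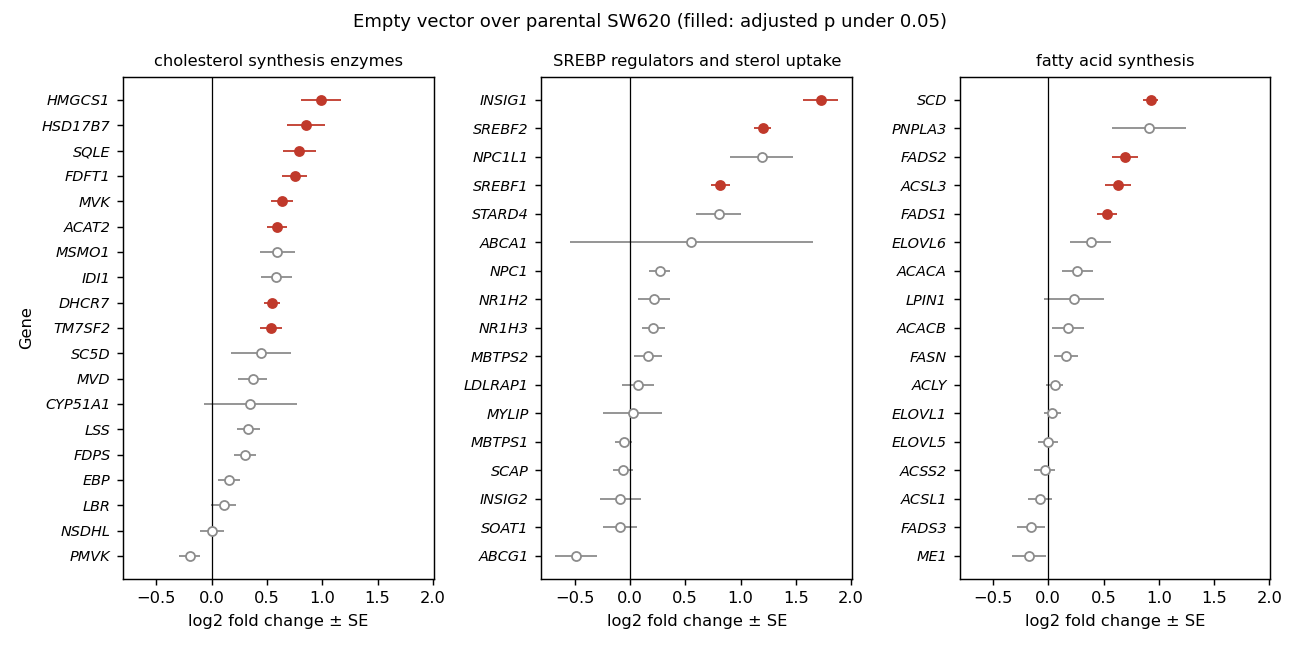
Log2 fold change of empty vector over parental SW620 (horizontal axis) for genes of 3 lists, with SE as bars; filled points passed an adjusted p of 0.05. The called genes lie at positive values, from TM7SF2 and FADS1 near 0.5 to INSIG1 at 1.72, and the open points run from ABCG1 at -0.49 to NPC1L1 at 1.19.

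The promoters of 4 of these genes are shown because the genes were higher together and the regulator SREBF2 is among them. Each runs from 250 bases before to 50 bases after the gene's start in RefSeq on GRCh38.p14, 5′ to 3′ on the gene's strand: SREBF2 at chr22:41832855-41833154 (plus strand), INSIG1 at chr7:155297628-155297927 (plus), HMGCS1 at chr5:43313363-43313662 (minus) and SCD at chr10:100346983-100347282 (plus). Capitals mark the sterol element, searched as TCACNCCAC, and the CCAAT box, searched as CCAAT, each on both strands, so that a CCAAT box on the other strand reads ATTGG; the motifs share no letters here.
SREBF2: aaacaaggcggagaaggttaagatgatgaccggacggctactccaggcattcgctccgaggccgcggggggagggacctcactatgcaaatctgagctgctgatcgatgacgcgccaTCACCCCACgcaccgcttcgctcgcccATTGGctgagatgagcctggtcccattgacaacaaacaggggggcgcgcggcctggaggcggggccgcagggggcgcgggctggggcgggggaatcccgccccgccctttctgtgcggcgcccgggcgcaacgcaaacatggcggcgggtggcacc
INSIG1: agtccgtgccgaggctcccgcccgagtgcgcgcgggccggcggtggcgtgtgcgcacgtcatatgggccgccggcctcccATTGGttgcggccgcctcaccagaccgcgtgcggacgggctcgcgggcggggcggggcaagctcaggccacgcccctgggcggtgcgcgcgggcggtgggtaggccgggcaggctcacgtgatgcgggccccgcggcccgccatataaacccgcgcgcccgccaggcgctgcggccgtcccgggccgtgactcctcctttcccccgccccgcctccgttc
HMGCS1: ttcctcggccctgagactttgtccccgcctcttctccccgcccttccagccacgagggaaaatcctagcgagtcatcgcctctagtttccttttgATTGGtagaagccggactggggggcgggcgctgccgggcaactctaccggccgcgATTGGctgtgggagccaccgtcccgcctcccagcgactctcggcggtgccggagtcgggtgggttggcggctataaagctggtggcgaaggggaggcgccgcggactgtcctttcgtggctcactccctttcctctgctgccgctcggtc
SCD: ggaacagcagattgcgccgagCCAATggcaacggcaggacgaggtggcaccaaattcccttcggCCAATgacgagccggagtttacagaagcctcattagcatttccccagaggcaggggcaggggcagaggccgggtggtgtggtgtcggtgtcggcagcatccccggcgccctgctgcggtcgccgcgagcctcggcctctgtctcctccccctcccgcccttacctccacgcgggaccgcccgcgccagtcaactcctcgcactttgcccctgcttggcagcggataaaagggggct
In SREBF2 the sterol element begins 133 bases before the start and a CCAAT box 106 bases before it. The INSIG1 window holds a CCAAT box beginning 170 bases before the start, HMGCS1 holds boxes at 155 and 100 bases, and SCD at 229 and 186 bases. Of 27305 promoters in the table, 313 (1.15%) hold the sterol element and 35.7% the CCAAT box. Of the 58 genes on the 3 lists, 47 had a promoter entry, and among the 16 cholesterol synthesis enzymes with an entry 12 (75.0%) hold a CCAAT box and 0 the sterol element as spelled. The box is held by 6 of 15 promoters of the regulator list (40.0%) and 8 of 16 of the fatty acid list, and the sterol element by SREBF2 alone among them. A match describes letters in this window and not a bound site.

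Beyond the sterol genes, the largest increases were read among called genes whose mean CPM, before the offsets, reached 5 in either group; some called genes below that level had larger fold changes. DEFA5, a defensin of Paneth cells, had 4.23 and 5.11 adjusted CPM with empty vector, against 0.742 and 0.514 in parental cells, from 84 and 84 reads against 11 and 9 (log2 2.89, SE 0.30, adjusted p = 0.00115). DPEP1, a dipeptidase of the cell surface, was at a much greater level, with 158 and 158 with empty vector, against 48.0 and 47.0 in parental cells (log2 1.73, SE 0.097, adjusted p = 2.87e-05). DDIT4, whose protein REDD1 restrains the growth kinase mTORC1, was at 16.9 and 19.4 with empty vector, against 5.59 and 4.48 in parental cells (log2 1.86, adjusted p = 6.53e-05). Besides INSIG1, the other 8 of the 12 largest increases at 5 CPM or more were C6orf223 (log2 2.38), FGFBP1, a carrier of fibroblast growth factors (2.11), LEMD1 (1.88), FXYD3, a regulator of the sodium pump (1.76), the intestinal homeobox gene ISX (1.73), the kinesin gene KIF12 (1.68), DIO3, which inactivates thyroid hormone (1.68), and the membrane-binding annexin ANXA6 (1.60). Genes were read here only if their 2 and 2 levels before the offsets did not overlap. DIO3 has an antisense partner, DIO3OS, that was also called (log2 0.90), and because the sources used here do not state whether counting was stranded, reads of the pair cannot be told apart. Of these 12 genes, LEMD1 lost its call without empty vector library I (adjusted p = 0.0559), and the other 11 kept theirs in each fit that leaves out 1 library. Without the offsets DPEP1, FXYD3, KIF12, ANXA6, ISX and LEMD1 lost theirs (adjusted p = 0.0749 to 0.18). In the 16 libraries with offsets C6orf223, FGFBP1, DDIT4, DIO3, ISX and LEMD1 lost theirs (adjusted p = 0.205 to 0.812).

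**Figure D2:**
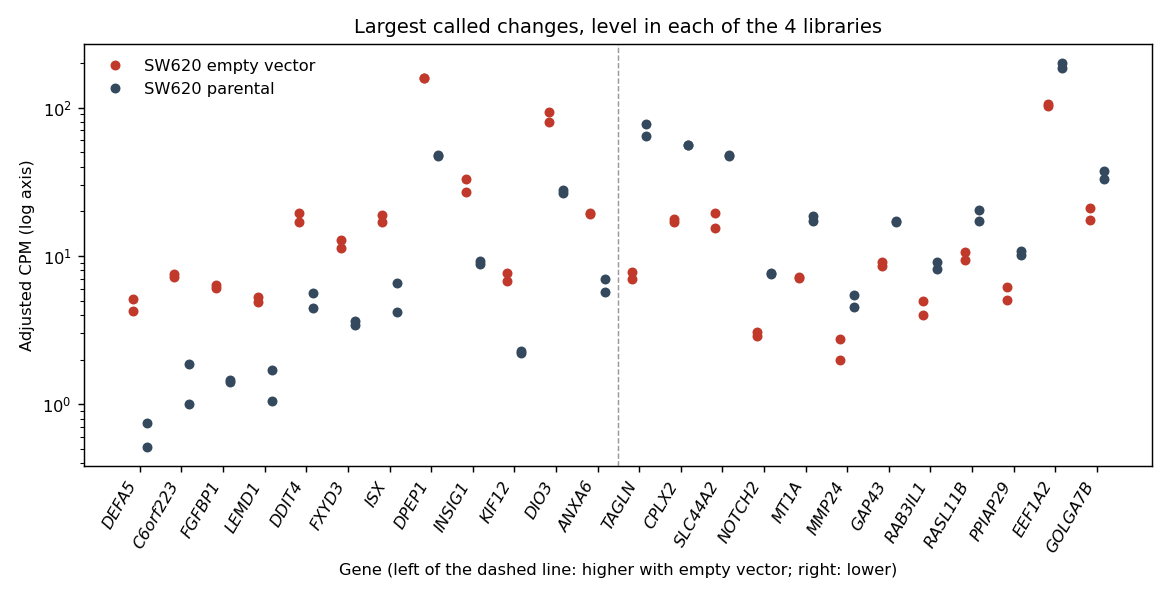
Adjusted CPM (log axis) in each of the 2 empty vector and 2 parental SW620 libraries for the 12 largest increases and the 12 largest decreases among called genes at 5 CPM or more. The 24 genes were chosen among those whose groups do not overlap before the offsets. TAGLN has the widest gap among the decreases, with 7.73 and 7.04 with empty vector, against 64.5 and 77.6 in parental cells.

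Epithelial genes had few calls. CDH1 (ENSG00000039068), which encodes E-cadherin, was at 57.8 and 55.1 adjusted CPM with empty vector, against 21.0 and 16.7 in parental cells (log2 1.58, SE 0.12, adjusted p = 0.000113), and kept its call in each fit that leaves out 1 library. Of 32 tested genes of epithelial junctions and polarity, CDH1 and JUP, the plakoglobin gene (log2 0.43), were higher (6.25%), against 0.992% of all genes tested. Of the list 0 were lower, and the median was 0.22. A positive difference was seen in 23 of the 32 (71.9%), against 53.5% of all genes tested. CTNND1, the p120 catenin gene, missed the threshold at a log2 difference of 0.33 (adjusted p = 0.0504), and JUP lost its call without any 1 of the 4 libraries (adjusted p up to 0.193). Of 9 enterocyte genes 2 were higher (22.2%), DPEP1 and the adhesion gene CEACAM1 (log2 0.85), and 0 lower. Of 9 tested colon epithelial markers KRT18, a keratin of simple epithelia (log2 0.43), and HNF4A, an intestinal transcription factor (0.38), were higher (22.2%). KRT18 has near-identical pseudogene copies, so its reads are uncertain, and HNF4A lost its call without any 1 of the 4 libraries. Of 14 tested genes of mesenchymal transition 2 were higher (14.3%) and 0 lower: MMP14, a collagenase of the cell surface (log2 1.33), and TGFBI, a matrix protein (0.43). VIM, the vimentin gene, had 520 and 598 with empty vector, against 798 and 696 in parental cells without passing the test (log2 -0.42, adjusted p = 0.0943). The leukocyte marker LCP1, an actin bundler, was at 569.5 and 588 with empty vector, against 381 and 390.4 in parental cells (log2 0.58, adjusted p = 0.0168), with PTPRC, the marker of all leukocytes, at 0 reads. CEACAM1, KRT18, MMP14, TGFBI and LCP1 lost their calls without either empty vector library, KRT18 and TGFBI also without parental library I.

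The largest decrease among called genes at 5 CPM or more was that of TAGLN (ENSG00000149591), which encodes the actin-binding protein transgelin of smooth muscle. It stood at 7.73 and 7.04 adjusted CPM with empty vector, against 64.5 and 77.6 in parental cells, a log2 fold change of -3.26 (SE 0.16, adjusted p = 1.62e-05), the smallest adjusted p of the comparison. Of 20 tested contractile and actin-binding genes, TAGLN, the myosin light chain gene MYL9 (log2 -0.81) and the transgelin paralog TAGLN2 (-0.44) were lower (15%). CNN2, a calponin, was higher (log2 0.37, 5%), and the median was 0.10. Of all genes tested 0.526% were lower and 0.992% higher. The smooth muscle genes ACTA2, CNN1 and MYH11 had too few reads to be tested. In bulk RNA, fewer cells with a transcript and less of it in each cell cannot be told apart, here and for the genes that follow. MYL9 lost its call without empty vector library II (adjusted p = 0.0964), and TAGLN2 without either empty vector library or parental library II (adjusted p up to 0.215). TAGLN kept its call without any 1 library and without the offsets, and lost it in the 16 libraries with offsets (log2 -3.27, adjusted p = 0.106).

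Neuronal and neuroendocrine genes formed the group with most decreases. Of 26 tested, 7 were lower (26.9%) and 0 higher, against 0.526% lower and 0.992% higher of all genes tested. The median log2 fold change was -0.49. CPLX2, complexin 2, which controls the fusion of secretory vesicles, was at 17.8 and 16.8 adjusted CPM with empty vector, against 55.9 and 55.9 in parental cells (log2 -1.69, SE 0.12, adjusted p = 6.53e-05). EEF1A2, a translation elongation factor of neurons and muscle, was at 106 and 102 with empty vector, against 185 and 199 in parental cells (log2 -0.88, adjusted p = 0.00665). GAP43, a growth cone protein, was at 8.53 and 9.15 with empty vector, against 16.9 and 17.3 in parental cells (log2 -0.95, adjusted p = 0.00834). In all 3 genes the empty vector libraries lay below both parental libraries. None of the 251 called genes had overlapping levels, so this is no separate support. CRMP1 and DPYSL3, relatives that act on the cytoskeleton of growing axons, were lower by log2 values of -0.75 and -0.47, and ENO2, the neuronal enolase, by -0.50. CHGA, chromogranin A of secretory granules, was lower on few reads, 3 and 1 with empty vector, against 31 and 24 in parental cells (adjusted p = 0.0104). Its relatives CHGB and SCG2 were at log2 -0.96 and -0.88 without passing the test, and the synaptic genes SYP and SYT1 at -0.13 and -0.03. Without either empty vector library 1 of the 7 calls was left, that of CPLX2. Without the offsets 2 were left, CPLX2 and CHGA, and in the 16 libraries with offsets 0 (adjusted p = 0.212 for CPLX2).

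The remaining large decreases at 5 CPM or more were in genes of no shared list. SLC44A2, a choline transporter-like protein, was at 19.4 and 15.3 adjusted CPM with empty vector, against 47.8 and 47.1 in parental cells (log2 -1.45, SE 0.14, adjusted p = 0.000781). The receptor gene NOTCH2 was at 3.08 and 2.90 with empty vector, against 7.66 and 7.59 in parental cells (log2 -1.35, adjusted p = 0.0367). The others were MT1A, a metallothionein with near-identical relatives (log2 -1.31), the metalloprotease gene MMP24 (-1.05), RAB3IL1 (-0.94), the small GTPase gene RASL11B (-0.91), PPIAP29, a pseudogene copy of PPIA whose reads are uncertain (-0.89), and GOLGA7B (-0.88). SLC44A2 kept its call in each fit that leaves out 1 library and lost it without the offsets (adjusted p = 0.0717) and in the 16 libraries with offsets (0.0529). NOTCH2, MT1A, MMP24, RAB3IL1, RASL11B, PPIAP29, GOLGA7B, GAP43 and EEF1A2 lost theirs without either empty vector library, with adjusted p-values of up to 0.314 for MMP24. MMP24, RAB3IL1 and PPIAP29 also lost theirs without parental library II.

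Stress, interferon and hormone response lists had few or no calls. Over all genes tested 0.992% were higher and 0.526% lower, and the single calls below were 2.7% and 4.55% of their lists. Of 30 interferon-stimulated genes 0 were called, with a median of 0.04; STAT2, a transducer of interferon signals, came nearest, with 55.1 and 50.1 adjusted CPM with empty vector, against 42.0 and 37.2 in parental cells (adjusted p = 0.0902). Of 18 sensors of nucleic acids and restriction factors 0 were called (median 0.06), and of 16 NF-kB targets also 0 (median 0.17). Of 37 genes of the amino acid and ER stress response DDIT4 was the 1 gene higher and 0 were lower (median -0.06). Of 19 classical estrogen response genes 0 were called (median 0.15). Among 22 genes known to answer to DNA damage CDKN1A, the cell cycle inhibitor p21, was higher at a low level, with 3.36 and 2.82 with empty vector, against 1.33 and 0.943 in parental cells (log2 1.46, adjusted p = 0.0457), a call that was lost without either empty vector library or without parental library II (adjusted p up to 0.202).

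Among 31 immediate early genes, which respond within minutes to growth signals, EGR1 and DUSP6 were higher (6.45%), against 0.992% of all genes tested. Of the 31, 0 were lower, and the median was 0.30. DUSP6, a phosphatase that dampens ERK, was at 71.4 and 100.3 adjusted CPM with empty vector, against 41.1 and 30.5 in parental cells (log2 1.26, adjusted p = 0.00644). EGR1 was at 34.5 and 41.3 with empty vector, against 20.9 and 19.3 in parental cells (log2 0.92, adjusted p = 0.006). Of 20 chaperone genes 3 were higher (15%) and 0 lower, at a median of 0.01. HSPA8, the constitutive HSP70, was at 3027 and 3137 with empty vector, against 1946 and 1810 in parental cells (log2 0.71, adjusted p = 0.00337). Its sign was the opposite in a fit of the authors' FPKM values (log2 -4.71 on log2(FPKM + 1)), and its pseudogene copies HSPA8P5, HSPA8P7 and HSPA8P8 were called higher with it, so its reads are uncertain. The other chaperones called were DNAJB1 (log2 0.41) and HSPA1A (0.96), which has a near-identical copy. Both lost their calls without either empty vector library, DNAJB1 also without parental library I and HSPA1A also without parental library II. EGR1 lost its call without empty vector library II.

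Cell cycle genes lay slightly below 0. Calls were few: 5% of S phase and 2.63% of G2 and mitosis genes were lower, against 0.526% of all genes tested. Higher were 6.25% of hypoxia and glycolysis, 3.7% of WNT, 2.27% of ribosomal protein and 8.33% of nuclear receptor genes, against 0.992% of all. Of 40 S phase genes RFC2 (log2 -0.57) and MCM7 (-0.39), which load the sliding clamp and unwind DNA at replication forks, were lower and 0 higher (median -0.13). Of 38 G2 and mitosis genes FOXM1, a transcription factor of that phase, was lower, at 371 and 353 adjusted CPM with empty vector, against 526 and 475 in parental cells (log2 -0.47, adjusted p = 0.0208). These 3 calls were lost without either empty vector library, that of MCM7 also without parental library II. Of 32 hypoxia and glycolysis genes ALDOC (log2 0.97) and PFKFB4 (0.70) were higher and 0 lower (median -0.10). Among WNT targets SMOC2, a marker of intestinal stem cells, was higher (log2 0.67). Of 13 mitochondrially encoded mRNAs 0 were called, but 11 had a positive difference (84.6%, median 0.26), a median above those of the regulator and fatty acid lists. MT-ND4L, a subunit of complex I, came nearest to a call, with 821 and 768 adjusted CPM with empty vector, against 560 and 575 in parental cells (log2 0.48, adjusted p = 0.066). The part of this difference in the other results was not tested. Of 17 histone genes 0 were called (median -0.03), and of 44 cytosolic ribosomal protein genes RPS12 alone (log2 0.39; median 0.01). Of 34 nuclear genes of the respiratory chain 0 were called (median -0.06), and of 17 MHC class I genes 0 (median -0.12). Among the nuclear receptors RARG, a retinoic acid receptor, was higher (log2 0.67) besides HNF4A. ALDOC and SMOC2 lost their calls without empty vector library II, and PFKFB4, RPS12 and RARG without either empty vector library. PFKFB4 also lost its call without parental library I, and RPS12 and RARG theirs without parental library II.

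Small differences of one sign ran over whole stretches of chromosomes. This was looked for after gene values had been seen, with chromosome and gene order from GENCODE 29, over genes at 5 CPM or more, in windows of 30 or more neighbours. On chromosome 13, 82.8% of 186 genes had a positive difference between empty vector and parental cells, with a median log2 of 0.23, and its 6 windows ran from 0.14 to 0.38. Relative to the parental mean and the median of all genes, chromosome 13 stood at 0.20 and 0.26 in the empty vector libraries and at 0.05 and -0.05 in the parental libraries. On chromosome 7, 27.1% of 513 genes had a positive difference (median -0.14), and its levels were -0.18 and -0.12 with empty vector, against 0.01 and -0.01 in parental cells. The first 14 windows of chromosome 7 ran from -0.26 to -0.07, and the last 3 from -0.07 to -0.02.

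Parts of 2 further chromosomes stood apart. On chromosome 6 the last 4 windows, from RWDD1 to PDCD2, ran from 0.17 to 0.33, and the first 14 from -0.01 to 0.10. On chromosome X the last window, 40 genes from MTMR1 to TMLHE, had a median of -0.27 with 12.5% of genes positive, and the first 11 ran from -0.02 to 0.13. The 295 windows of the other chromosomes ran from -0.122 to 0.174, so 1 of the 4 windows of chromosome 6, at 0.173, lay within their range. So did the last 3 windows of chromosome 7, and further windows of it at -0.065, -0.104, -0.115 and -0.12. On chromosome 13 the window at 0.143 did as well. The chromosome medians were 0.26 for 13 and -0.16 for 7 without the GC and length offsets. The separation of the libraries on chromosome 13 depended on the offsets: without them it stood at 0.11 and 0.43 with empty vector, against 0.25 and -0.25 in parental cells, so the groups overlapped. Chromosome 7 stood at -0.18 and -0.10 with empty vector, against 0.02 and -0.02 in parental cells without them. Without each library in turn they ran from 0.16 to 0.28 for 13 and from -0.21 to -0.10 for 7.

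Some called genes lay in these stretches. Chromosome 7 held 19 of the 87 lower genes, 2.26% of its 842 tested genes, among them both S phase genes, RFC2 and MCM7, further POLD2, a DNA polymerase subunit (log2 -0.42), and IMPDH1, which makes guanine nucleotides (-0.63). It also held 5 higher genes (0.594%, against 0.992% of all genes tested), INSIG1 among them. The last window of X held 7 lower genes of 40 (17.5%), among them IRAK1, a kinase of Toll-like receptor signalling (-0.66), EMD, emerin of the nuclear envelope (-0.65), and the creatine transporter gene SLC6A8 (-0.77). The last 4 windows of chromosome 6 held 7 higher genes of 132 (5.3%) and 0 lower, with ACAT2 of cholesterol synthesis, RPS12 and SMOC2 among them. Chromosome 13 held 5 higher genes of 298 tested (1.68%), against 0.992% of all genes tested, and 0 lower, LCP1 among them. In the windows of the other chromosomes 1.28% of genes were higher and 0.616% lower. POLD2, IMPDH1, IRAK1, EMD and SLC6A8 were chosen for naming after their values were seen.

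**Figure D3:**
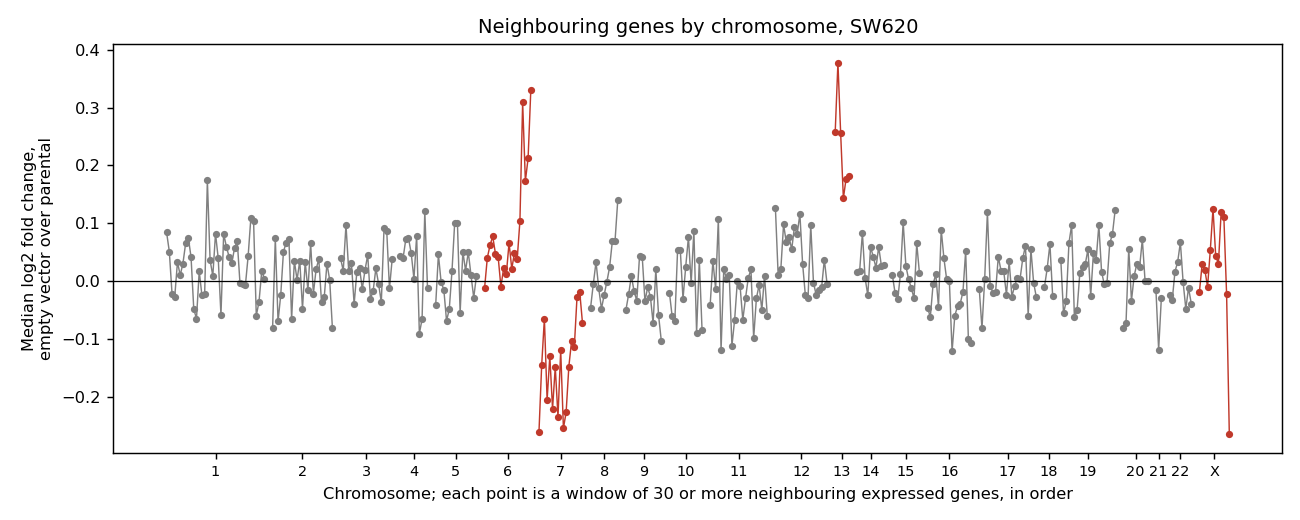
Median log2 fold change of empty vector over parental SW620 (vertical axis) in windows of 30 or more neighbouring genes at 5 CPM or more, along each chromosome (horizontal axis). Chromosomes 6, 7, 13 and X are in red; the windows of 13 lie above 0, those of 7 below 0, and the ends of 6 and X leave the range of -0.12 to 0.17 that holds the grey windows.

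The same genes were then read in the other SW620 groups, as levels and without a test, since a comparison of ERB with parental cells would share the parental libraries. With ERB, SREBF2 was at 267 and 277 adjusted CPM and SCD at 498 and 491, near the levels with empty vector. In the ERB cells given DMSO, SREBF2 was at 147 and 139 and SCD at 182 and 185. The trend with GC was strongest in these DMSO libraries, at 0.73 and 0.96 (log2) at 39.1% GC before its removal. With estradiol, SREBF2 was at 159 and 159.8 and SCD at 207 and 199.8. Both genes stood highest in the untreated transduced cells, and INSIG1 was lower with the solvent or estradiol, at 3.93 and 3.59 with DMSO and 3.90 and 3.17 with estradiol, than its 8.85 and 9.29 in parental cells. DDIT4 stood at 498 and 475 with DMSO and 475 and 465 with estradiol, far above the 16.9 and 19.4 with empty vector.

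CPLX2 and TAGLN did not return to the parental level in the treated cells. CPLX2 was at 12.9 and 12.3 with ERB, 14.2 and 14.5 with DMSO and 13.98 and 12.4 with estradiol. TAGLN was at 11.8 and 10.3 with ERB, 22.2 and 17.3 with DMSO and 23.2 and 23.4 with estradiol. CDH1 was at 76.7 and 82.6 with ERB, 55.3 and 56.2 with DMSO and 53.4 and 50.8 with estradiol, each above both parental libraries. The chromosome 13 median, on the same relative scale, was 0.37 and 0.35 with ERB, 0.35 and 0.38 with DMSO and 0.25 and 0.30 with estradiol. That of chromosome 7 was -0.25 and -0.28 with ERB, -0.14 and -0.18 with DMSO and -0.22 and -0.23 with estradiol. Without the offsets chromosome 13 stood at 0.43 and 0.40 with ERB, 0.73 and 0.88 with DMSO and 0.22 and 0.11 with estradiol. The parental libraries then stood at 0.25 and -0.25, so the estradiol libraries lay between them. Chromosome 7 without the offsets was at -0.24 and -0.28 with ERB, -0.13 and -0.10 with DMSO and -0.23 and -0.22 with estradiol. These values and those of the empty vector libraries are set against the same parental mean, so that they are not independent of each other.

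**Figure D4:**
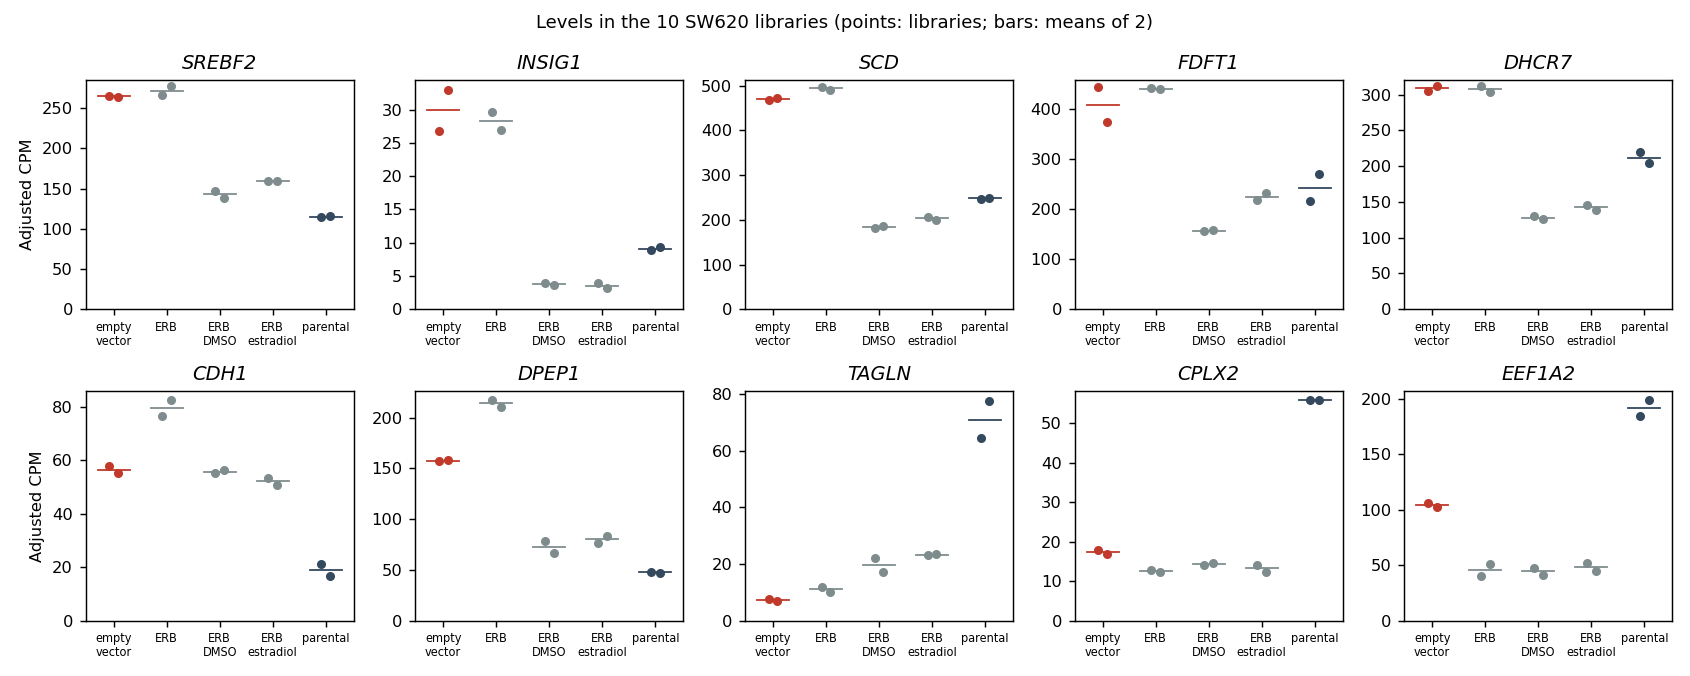
Adjusted CPM of 10 genes in the 10 SW620 libraries by group (empty vector, ERB, ERB with DMSO, ERB with estradiol, parental); points are libraries and bars the means of 2. The 5 lipid genes of the upper row are high with empty vector and ERB and low in the other 3 groups, while CDH1 lies above and TAGLN, CPLX2 and EEF1A2 lie below parental cells in all 4 transduced groups.

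Whether the empty vector went with the same change in both lines was tested as the difference of the 2 effects in 1 fit of 16 libraries with offsets. Of 17464 genes, 3746 differed between the lines (21.4%). The libraries labelled SW480 with empty vector lacked genes that are high in parental SW480: ANXA6 averaged 23.6 adjusted CPM in them, against 867 in parental SW480, and NOTCH2 3.05 against 126. The difference is therefore one between labels. SREBF2 was higher by a log2 of 1.20 in SW620 and 1.18 in the libraries labelled SW480, a difference of 0.03 (SE 0.18, adjusted p = 0.94). KIF12 had 1.68 in SW620 and 1.72 in the libraries labelled SW480, and C6orf223 2.37 and 2.28 in the same order. INSIG1 had 1.71 in SW620 and -0.13 in the libraries labelled SW480 (difference 1.85, SE 0.32, adjusted p = 0.00149). TAGLN was at -3.27 in SW620 and -0.73 in the libraries labelled SW480, a difference that missed the threshold (-2.53, SE 0.87, adjusted p = 0.0542).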

How the data were processed

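Per the labels' protocols, the 16 libraries were made from poly(A) RNA by a stranded method. Read counts for each gene, as the authors deposited them, were analysed; the deposited FPKM values entered as an alternative. Per the submitters' processing notes, the build was GRCh37 and the tools were HTSeq 0.6.1, TopHat2 2.0.4, Cufflinks 2.1.1, SAMtools and Picard 1.29; the sources used here do not state whether counting was stranded. The reference annotation (GENCODE 29) is on GRCh38, so no gene coordinates are given beyond the RefSeq promoters.

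Deposited counts of the 10 SW620 libraries were filtered with filterByExpr, scaled with TMM factors and fitted by edgeR 4.0.16 (R 4.3.3; 5 groups of 2), with offsets that take out a smooth trend per library with the GC content and length of transcripts (natural splines, 5 degrees of freedom each; known for 98.1% of tested genes). A gene was called at a two-sided Benjamini-Hochberg adjusted p under 0.05 over all tested genes. Alternatives used DESeq2 1.42.0, limma 3.58.1 on log2(FPKM + 1) and log2(FPKM + 0.1), other filters, scalings and sets of libraries. In fits that leave out a library, the single one left in that group is taken to vary as the other groups do.

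The comparison, its design and 32 gene lists were chosen with earlier results of these data known. Named were ESR2 and ESR1, up to 12 called genes per direction with the largest fold change at 5 CPM or more and without overlap, and up to 3 called genes per list, or 2 with the smallest p where none was called; further list members and genes given by chromosome were named after their values were seen. Some genes these rules name are counted in the lists but not reported by name here. The floor of 3 reads covers counting error only.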

Additional observations from a re-analysis of the deposited data

Results flagged for a closer look

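The values below are the difference between the 2 line labels in the log2 effect of the empty vector, SW620 minus the libraries labelled SW480. They come from 1 edgeR fit of 16 libraries with GC and length offsets. Each of these 26 named genes was listed because that difference passed an adjusted p of 0.05, as did 21.4% of all genes tested.

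In 3 sterol and lipid genes the effect was more positive in SW620: INSIG1 (1.85), FADS2 (1.63) and FADS1 (0.89). In 2 it was less positive there, FDFT1 (-1.07) and SCD (-1.80). Of the epithelial and gut genes, CDH1 (-1.61), FXYD3 (-1.18), CEACAM1 (-1.83), SMOC2 (-1.79) and HNF4A (-2.40) had the larger increase in the libraries labelled SW480. The leukocyte marker LCP1 (-2.19) and the matrix gene TGFBI (-1.17) did so as well.

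Some genes had a positive effect in SW620 and a negative one in the libraries labelled SW480: CDKN1A (6.36), DUSP6 (3.61), EGR1 (1.98), MMP14 (3.94), RARG (2.44) and ANXA6 (6.80). ANXA6 was at a mean of 18.9 adjusted CPM with empty vector and 6.20 in parental SW620, and at 23.6 under the label SW480 with empty vector and 867 in parental SW480. DEFA5 (11.82) had a level of 0 under the label SW480 with empty vector, so its fitted difference depends on the prior count and is no measure of size. CPLX2 (2.22), SLC44A2 (1.11), NOTCH2 (3.98) and CRMP1 (2.26) were lower with empty vector under both labels, and less so in SW620. GAP43 (-1.22), MT1A (-1.79) and TAGLN2 (-0.87) were lower in SW620 and had positive values in the libraries labelled SW480.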

How the results depend on the processing

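The counts of genes higher and lower with empty vector, 164 and 87, were 160 and 93 with RLE size factors and 167 and 89 with a filter of 1 CPM in 2 libraries. They were 11 and 3 without offsets, 22 and 2 in 16 libraries with offsets, 0 and 0 in 16 libraries without them, 29 and 8 in the 6 untreated SW620 libraries and 1 and 1 in the 4 libraries alone. With no low-count filter they were 406 and 227, with DESeq2 262 and 151, and against a minimum of 1.5-fold 22 and 3. Limma on log2(FPKM + 1) gave 10 and 3, on log2(FPKM + 0.1) 10 and 3, and on unfiltered log2(FPKM + 1) 24 and 29. Leaving out 1 library gave 52 to 648 higher and 8 to 691 lower genes. With the replicate number as a block, the counts were 96 and 41. The deviations of same-numbered empty vector and parental libraries correlated at -0.67, and whether the numbers pair them cannot be told from this. With the pairing crossed, an alternative added after the data were seen, they were 615 and 462. The difference between lines was called for 3746 genes, for 1258 without offsets, and for 1939 to 6195 when 1 library was left out. HSPA8 reversed on FPKM (log2 -4.71, -6.37 and -4.71 in the 3 FPKM fits), as did PDGFRB, not called in any of them (-0.033, -0.051 and -0.033); the cause was not tested. Of 56 called genes that are named, 19 kept their call in all 4 fits that leave out a library. Over the 251 called genes, 41 did, 35 of them higher and 6 lower. Depth limits genes with few reads, such as CHGA.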

Other observations

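Among the 251 called genes, some outside the lists were chosen here after their values were seen, so they do not describe a group. Higher with empty vector were the keratin KRT23 (log2 1.47), S100A14 (1.58), the mucin MUC13 (0.96), the tetraspanin TSPAN8 (1.44) and the sodium channel subunit SCNN1A (0.75). SOAT2, which esterifies cholesterol, was higher (1.51), as was LIPC, the hepatic lipase (1.32). PRF1, the perforin gene of lymphocytes, was at 109.8 and 113 adjusted CPM with empty vector, against 67.1 and 62.5 in parental cells (log2 0.78). LCK, a kinase of T cell signalling, was at 405 and 373 with empty vector, against 270.2 and 285 in parental cells (0.49), and CORO1A, an actin regulator (0.90), and LAPTM5 (1.49) were also higher, while SYK, a kinase of B cell signalling (-0.50), and CD163L1 (-0.77) were lower. The defining leukocyte markers PTPRC and CD3E had no reads, and the part of other cells in these values was not tested.

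Among the lower genes were ODC1, the first enzyme of polyamine synthesis (log2 -0.51), SRM, which acts after it (-0.44), COTL1, an actin-binding protein (-0.83), the tubulin gene TUBB6 (-0.87), UNC13A, a vesicle priming factor of synapses (-1.61), and the growth factor genes MDK (-0.58) and BMP7 (-0.49).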
